A study of Mus musculus with 20 samples.

Results

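The Na,K-ATPase is the plasma membrane pump that exports sodium and imports potassium at the cost of ATP. The genes described here are *Atp1b1*, *Atp1b2* and *Atp1b3*, which encode the beta 1, beta 2 and beta 3 subunits of this pump. They were taken by symbol from the deposited table, in which they are 3 of 24411 genes, and each passed the filter on low values that left 18807 genes for testing. No measured value entered the choice by the rule. The RNA came from the RPE-choroid, the outer eyecup with the retinal pigment epithelium (RPE), of C57BL/6 mice that were either wild type (WT) or Stra6-/-. *Stra6* encodes a membrane receptor that carries vitamin A from its blood carrier into cells. The mice of both genotypes were born to dams on standard chow and after weaning received a vitamin A sufficient (VAS, 4 IU/g) or deficient (VAD, 0 IU/g) diet for 12 weeks. The 4 groups, VAS WT, VAD WT, VAS Stra6-/- and VAD Stra6-/-, held 5 libraries each, and the study's methods give both eyecups of a mouse as the material of a sample. The knockout was not restricted to the RPE, and the eyecup holds other cells as well.

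The pump works as a pair of a catalytic alpha subunit and a glycosylated beta subunit, often with a small FXYD protein that tunes its affinity for ions. The beta subunit is needed for the alpha subunit to fold and reach the membrane, and it also takes part in cell adhesion. In most polarized epithelia the pump sits in the basolateral membrane, whereas in the RPE it sits in the apical membrane, facing the photoreceptors, where it sustains the ion gradients of the subretinal space. Photoreceptors carry a pump of their own in the inner segments, in which the beta 2 subunit takes part.

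*Atp1b1* lies on chromosome 1 of GRCm38 from 164437109 to 164458355, *Atp1b2* on chromosome 11 from 69599736 to 69605942, and *Atp1b3* on chromosome 9 from 96332655 to 96364442. All 3 are protein-coding genes on the minus strand in GENCODE vM21. The merged exons of *Atp1b1* cover 3081 bp, those of *Atp1b2* 4085 bp and those of *Atp1b3* 2389 bp. The exons at the 3′ end of *Atp1b1* overlap exons of *Nme7* on the opposite strand over 575 bp, or 18.7% of the exon bases of *Atp1b1*. Whether strand was used in counting is not given in the sources used here, so reads in that stretch could belong to either gene. *Nme7* had normalized values of 134 to 255 over the 20 libraries, far under those of *Atp1b1*, and it was not called in any comparison.

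RefSeq promoter windows, which run from 250 bases before to 50 bases after an annotated start, matched 2 of the 3 genes. *Atp1b2* had no entry. The window of *Atp1b1*, the gene that changed most, is shown beside the one that starts at the 5′ end of *Atp1b3*, which has a second start downstream. Capitals mark matches, on either strand, to the GC box GGGCGG and to the CCAAT box.
Atp1b1, GRCm38.p6 chr1:164458306-164458605, minus strand: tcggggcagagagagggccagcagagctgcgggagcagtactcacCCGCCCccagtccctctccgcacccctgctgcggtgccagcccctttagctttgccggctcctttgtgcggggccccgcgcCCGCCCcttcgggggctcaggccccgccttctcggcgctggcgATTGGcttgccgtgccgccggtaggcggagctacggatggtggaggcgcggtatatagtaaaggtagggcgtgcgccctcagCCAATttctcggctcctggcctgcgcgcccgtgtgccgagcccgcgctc
Atp1b3, GRCm38.p6 chr9:96364382-96364681, minus strand: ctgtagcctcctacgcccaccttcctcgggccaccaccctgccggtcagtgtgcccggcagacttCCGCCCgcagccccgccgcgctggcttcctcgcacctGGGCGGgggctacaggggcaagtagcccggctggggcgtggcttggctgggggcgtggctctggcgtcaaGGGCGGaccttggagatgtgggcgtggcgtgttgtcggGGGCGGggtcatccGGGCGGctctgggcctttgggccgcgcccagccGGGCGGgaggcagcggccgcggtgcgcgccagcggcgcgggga

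The *Atp1b1* window held 2 GC boxes and 2 CCAAT boxes and was 71% G or C. The *Atp1b3* window held 6 GC boxes, no CCAAT box and 76% G or C. Of the 32851 promoter windows in the same reference, 35.7% held a GC box and 37.4% a CCAAT box, and the median window was 52.7% G or C. Neither window held TATAA, the retinoic acid receptor half-site AGGTCA, the OTX2 and CRX site TAATCC, or the E-boxes CATGTG and CACGTG, which were found in 24.9%, 16.3%, 7.06%, 14.2% and 7.15% of all windows. These letters describe the sequence and are not evidence of binding.

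Libraries held 13331903 to 21878614 reads. The *Stra6* values of the libraries bearing the VAD Stra6-/- label did not by themselves show the loss that the label names. They were 1973 to 2393, against 2414 to 2742 in VAS WT, 564 to 694 in VAS Stra6-/- and 669 to 1529 in VAD WT. The summed value of 20 RPE markers was 650634 to 697377 in these libraries and 162993 to 171321 in VAS Stra6-/-. It was 150536 to 168628 in VAS WT and 49733 to 95895 in VAD WT. Set against that sum, *Stra6* was lower in both groups labelled Stra6-/- than in either WT group, which was not tested. The libraries bearing the VAD Stra6-/- label also held both *Xist*, at 3570 to 4280, and the Y-linked *Ddx3y*, at 741 to 970. In VAS WT *Xist* was at 7.69 to 38.4 with *Ddx3y* at 981 to 1193, and in VAS Stra6-/- *Xist* was at 15320 to 18052 with *Ddx3y* at 0 to 1.02, so genotype and sex cannot be told apart on the VAS diet. VAD WT split into replicates 2 and 4, with *Xist* at 10912 and 11767 and *Stra6* at 1340 and 1529, and replicates 1, 3 and 5, with *Xist* at 174 to 234 and *Stra6* at 669 to 697, which overlaps the range of VAS Stra6-/-. Groups are named by their labels here, and a difference that involves either VAD group cannot be read as an effect of genotype or diet on the strength of the label. RPE markers were present in every group. *Krt12*, a keratin of the corneal epithelium, was at 2179 to 3433 in the libraries bearing the VAD Stra6-/- label and at 113908 to 400653 in all others. In bulk tissue, fewer cells of a type and less RNA per cell cannot be told apart. The main results that rest on VAD WT are therefore also given without either subset of it.

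*Atp1b1* encodes the beta 1 subunit, the most widely expressed beta subunit of epithelia. In the 5 VAS WT libraries its normalized values, which are reads divided by the size factor of the library, were 2686, 2497, 2931, 2468 and 2964. In VAS Stra6-/- they were 3113, 3305, 3139, 3138 and 3101, all above the highest VAS WT library. In VAD WT they were 1385, 3183, 1386, 3604 and 1243, so that replicates 2 and 4 stood above every VAS WT library and replicates 1, 3 and 5 below each of them. In the libraries bearing the VAD Stra6-/- label they were 9707, 10339, 9737, 9548 and 9817. The lowest of these libraries was far above the highest value of any other group; in the comparison with VAD WT, groups did not overlap for 37.4% of all genes tested.

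The mean of *Atp1b1* was 9830 ± 301 (SD of 5 libraries) in the libraries bearing the VAD Stra6-/- label, followed by 3159 ± 83.3 (SD of 5 libraries) in VAS Stra6-/-, 2709 ± 233 (SD of 5 libraries) in VAS WT and 2160 ± 1137 (SD of 5 libraries) in VAD WT. In the fit over all libraries, described next, the last 3 groups were not called as different where they were compared. With limma on log2(value + 1) over all 20 libraries, *Atp1b1* was higher in the libraries bearing the VAD Stra6-/- label than in VAS Stra6-/- by 1.64 in log2 units (standard error 0.21, adjusted p = 1.20e-06), a fold change of 3.11. Against VAD WT the difference was 2.34 (standard error 0.21, adjusted p = 6.22e-09), a fold change of 5.07. At an adjusted p under 0.05, 53.2% of all genes tested were called in the first of these comparisons and 55.9% in the second. *Atp1b1* was the only one of the 3 beta genes called in either.

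*Atp1b2* encodes the beta 2 subunit, also known as the adhesion molecule on glia, which belongs to the pump of photoreceptors and anchors retinoschisin there. Its values were 5606, 5233, 5069, 4885 and 5310 in VAS WT. They were 5621, 5523, 6314, 5572 and 5646 in VAS Stra6-/-, which overlaps VAS WT by a narrow margin. In VAD WT they were 2820, 8659, 2948, 8900 and 3237. As for *Atp1b1*, replicates 2 and 4 lay above all VAS WT libraries and the other 3 below them. The libraries bearing the VAD Stra6-/- label held 6376, 6792, 6502, 7127 and 6024.

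The means of *Atp1b2* ran from 6564 ± 418 (SD of 5 libraries) in the libraries bearing the VAD Stra6-/- label through 5735 ± 327 (SD of 5 libraries) in VAS Stra6-/- and 5313 ± 3169 (SD of 5 libraries) in VAD WT to 5221 ± 270 (SD of 5 libraries) in VAS WT. No neighbours in this order that were compared were called in the fit over all libraries. Against VAS Stra6-/-, the log2 fold change in the libraries bearing the VAD Stra6-/- label was 0.19 (95% confidence interval -0.32 to 0.70, adjusted p = 0.534, limma). Against VAD WT it was 0.51 (adjusted p = 0.0848, limma), and it passed the threshold at 0.74 without VAD WT replicate 2 (adjusted p = 0.00575) and at 0.75 without replicate 4 (adjusted p = 0.00446).

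*Atp1b3* encodes the beta 3 subunit, found in many tissues and known in blood cells as a surface antigen. Its values were 10312, 11045, 10909, 11162 and 10167 in VAS WT. In VAS Stra6-/- they were 8784, 8965, 8990, 8540 and 8640, all under the lowest VAS WT library. In VAD WT they were 13746, 6807, 12799, 6491 and 13602. Here the order within VAD WT was the opposite of that for the other beta genes, since replicates 2 and 4 were lowest. The libraries bearing the VAD Stra6-/- label held 9749, 9678, 9787, 9628 and 10839, between the groups on the VAS diet except for the last, which lay inside the VAS WT range.

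*Atp1b3* had means of 10719 ± 450 (SD of 5 libraries) in VAS WT, 10689 ± 3708 (SD of 5 libraries) in VAD WT, 9936 ± 508 (SD of 5 libraries) in the libraries bearing the VAD Stra6-/- label and 8784 ± 197 (SD of 5 libraries) in VAS Stra6-/-. Neighbours in this order were not called in the fit over all libraries. The difference between the libraries bearing the VAD Stra6-/- label and VAS Stra6-/- was 0.18 (95% confidence interval -0.17 to 0.52, adjusted p = 0.391, limma), and that against VAD WT was -0.03 (adjusted p = 0.915, limma).

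**Figure D1:**
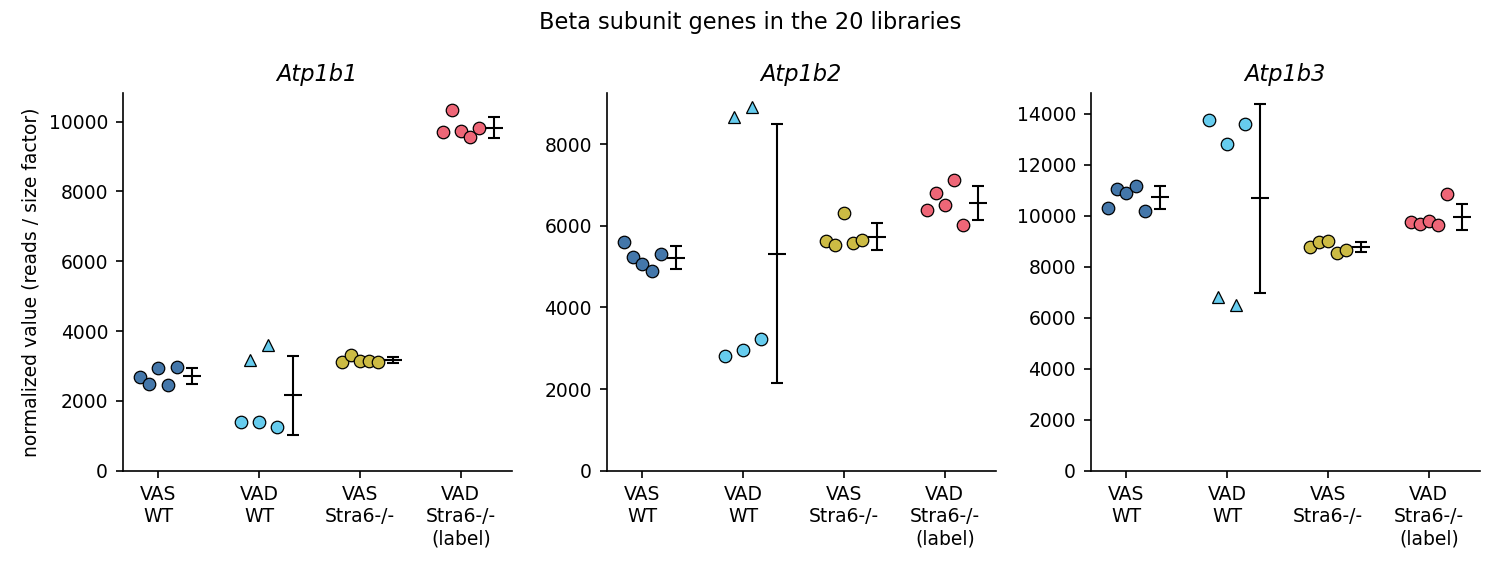
Normalized values (reads divided by size factor, linear axis from 0) of *Atp1b1*, *Atp1b2* and *Atp1b3* in the 5 libraries of each group, with the mean and SD as a bar beside them; triangles are VAD WT replicates 2 and 4. *Atp1b1* lies at 9548 to 10339 in the libraries bearing the VAD Stra6-/- label and at no more than 3604 elsewhere, and VAD WT is split in every panel.

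The comparison of VAS Stra6-/- with VAS WT is, by its labels, that of the genotypes on the sufficient diet. These groups also differed in sex by *Xist* and *Ddx3y*, so genotype and sex cannot be told apart in it. None of the 3 genes was called here in the fit over all libraries, whereas 26.6% of all genes tested were. The log2 fold change was 0.23 for *Atp1b1* (standard error 0.21, adjusted p = 0.486), 0.14 for *Atp1b2* (standard error 0.24, adjusted p = 0.74) and -0.29 for *Atp1b3* (standard error 0.17, adjusted p = 0.223). The groups did not overlap for *Atp1b1* and *Atp1b3*, which was so for 32.5% of all genes. The shared estimate of spread in that fit includes the split VAD WT group. When limma was fitted to these 10 libraries alone, the same differences were called, with adjusted p = 0.00677 for *Atp1b1*, 0.0366 for *Atp1b2* and 4.43e-05 for *Atp1b3*. In that fit, 8208 of the 18807 genes were called.

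The comparison of VAD WT with VAS WT is, by its labels, that of the deficient diet in wild-type mice. *Atp1b1* differed by -0.48 (adjusted p = 0.191), *Atp1b2* by -0.18 (adjusted p = 0.73) and *Atp1b3* by -0.08 (adjusted p = 0.826) in limma over all libraries. Of all genes tested, 8.78% were called. *Atp1b1* was called at -0.66 without VAD WT replicate 2 (adjusted p = 0.0316) and at -0.70 without replicate 4 (adjusted p = 0.0101). These values average over the split within VAD WT. In replicates 2 and 4 the mean of *Atp1b1* was 2.54 times and that of *Atp1b2* 2.92 times the mean in replicates 1, 3 and 5, while *Atp1b3* was 2.01 times higher in replicates 1, 3 and 5.

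Without replicates 2 and 4, *Atp1b1* fell by 1.01 on the log2 scale in VAD WT (adjusted p = 2.27e-11) and *Atp1b2* fell by 0.80 (adjusted p = 1.51e-09), while *Atp1b3* rose by 0.32 (adjusted p = 1.01e-05). Then 37.9% of all genes were called. Without replicates 1, 3 and 5 instead, *Atp1b1* rose by 0.33 (adjusted p = 0.00107), *Atp1b2* rose by 0.75 (adjusted p = 6.63e-08) and *Atp1b3* fell by 0.69 (adjusted p = 8.75e-09), with 32.8% of all genes called. For each of the 3 genes the direction of the diet difference in WT thus turned with the libraries kept. The subsets were told apart by values in these same libraries and not by the labels. Adjusted p values from either subset, here and below, therefore describe the libraries kept and do not test diet or genotype.

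Markers of several cell types moved with the same split. The summed value of 20 RPE markers was 94058 and 95895 in VAD WT replicates 2 and 4 and 49733 to 53243 in replicates 1, 3 and 5. The sum of 16 rod markers was 392219 and 394879 in the former and 150087 to 155925 in the latter. The sum of 17 markers of ocular surface epithelium was 476053 and 479460 in the former and 1217265 to 1252277 in the latter. Some smaller lists moved with it too. The sum of 5 erythrocyte markers was 44884 and 45389 in replicates 2 and 4 and 3175 to 3373 in the others, that of 10 fibroblast and sclera markers 154389 and 158145 against 51355 to 53669, that of 9 endothelium markers 19189 and 19610 against 6343 to 6484, and that of 13 skeletal muscle markers 16393 and 17420 against 4854 to 4959. Of these 7 lists, 1 marker, *Myh13* of skeletal muscle, was at 0 in all VAD WT libraries. The sums of the other lists, which weigh abundant genes most, differed less or not at all. The sum of 10 cone markers was 6325 and 6655 in replicates 2 and 4 and 4635 to 4863 in the others. That of 18 inner retina and Müller glia markers was 108848 and 109715 against 86487 to 91447. By gene, the median log2 difference of this list from VAS WT was 0.33 with VAD WT replicates 2 and 4 alone and -0.39 with the others. For the RPE markers these medians were -0.59 and -1.33. The sums of 9 macrophage markers overlapped, at 5108 and 5265 against 4719 to 5394. The libraries with more of the RPE and rod markers were those with more *Atp1b1* and *Atp1b2*, and those with more surface epithelium markers had more *Atp1b3*. Their part in these values was not tested.

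The comparison of the libraries bearing the VAD Stra6-/- label with VAS Stra6-/- contains no VAD WT library, although the spread estimate does. Only *Atp1b1* was called, and its groups did not overlap, as was so for 51.3% of all genes. In limma on these 10 libraries alone, *Atp1b2* (adjusted p = 0.00802) and *Atp1b3* (adjusted p = 0.00146) were called as higher too, at the same log2 differences of 0.19 and 0.18. The difference of *Atp1b1* stood at 1.62 to 1.65 when each of the 10 libraries was left out in turn.

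The comparison with VAD WT is, by its labels, that of the genotypes on the deficient diet. *Stra6* was higher in the libraries labelled as lacking it than in VAD WT, by 1.23 on the log2 scale. This was less than the median rise of 3.31 of 20 RPE markers, of which 19 were called as higher. *Atp1b1* was higher in the libraries bearing the VAD Stra6-/- label with either subset of VAD WT, by 2.88 (adjusted p = 4.10e-20) against replicates 1, 3 and 5 and by 1.54 (adjusted p = 1.19e-12) against replicates 2 and 4. *Atp1b2* was higher by 1.13 (adjusted p = 5.39e-13) against the former and lower by 0.42, at a log2 fold change of -0.42 (adjusted p = 2.21e-05), against the latter. *Atp1b3* was at -0.43 (adjusted p = 3.67e-08) against the former and at 0.58 (adjusted p = 1.94e-08) against the latter. Only for *Atp1b1* among the 3 genes did the direction not depend on which VAD WT libraries were used.

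**Figure D2:**
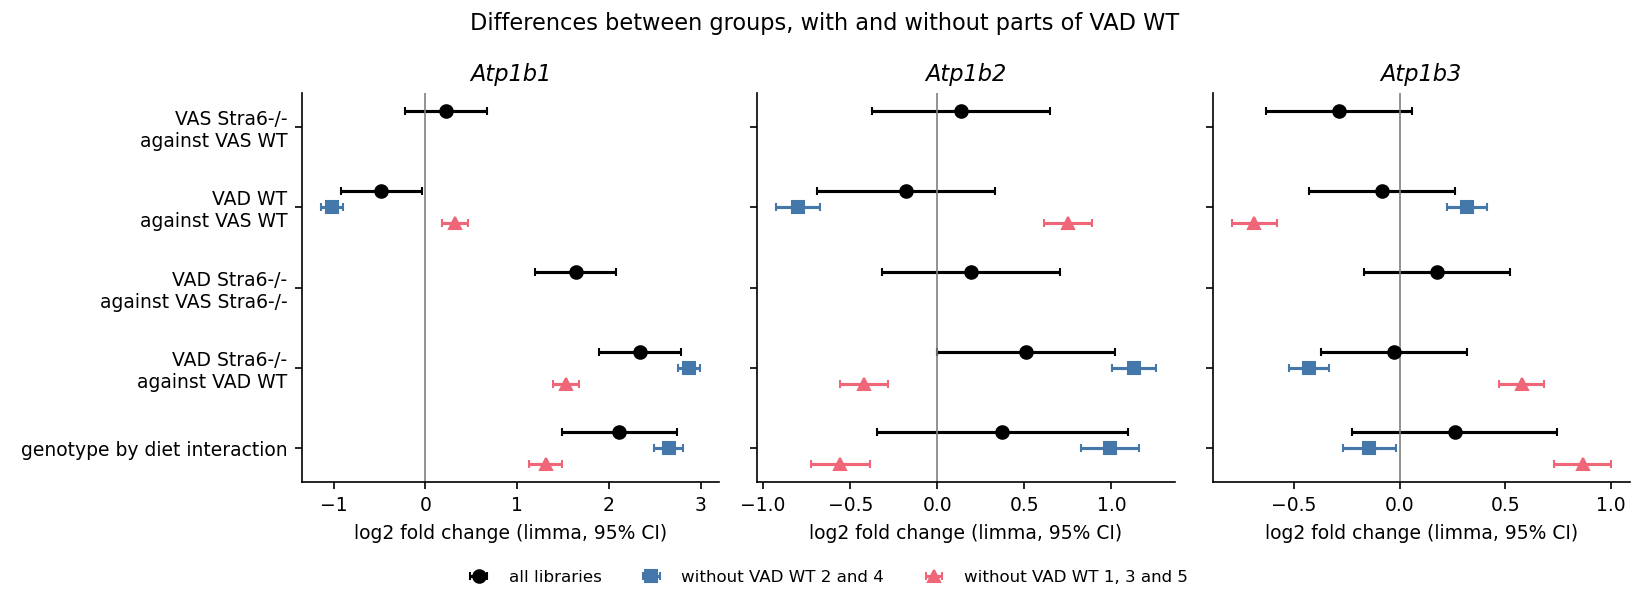
Log2 fold changes of the 3 genes in each comparison (limma, bars are 95% confidence intervals) with all libraries (circles), without VAD WT replicates 2 and 4 (squares) and without VAD WT replicates 1, 3 and 5 (triangles). The interaction row is the VAD minus VAS difference of the libraries labelled Stra6-/- less that of the libraries labelled WT. *Atp1b1* stays right of 0 in the last 3 rows, while the squares and triangles of *Atp1b2* and *Atp1b3* fall on opposite sides of 0 wherever VAD WT enters.

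The interaction term takes the difference between the groups labelled VAD and VAS Stra6-/- and subtracts that between VAD and VAS WT. Given the *Xist*, *Ddx3y* and cell type marker values above, it cannot be read as a diet effect that depends on the genotype. For *Atp1b1* it was 2.12 in log2 units (standard error 0.30, adjusted p = 6.39e-06, limma), where 44.2% of all genes were called. It was 2.65 without VAD WT replicates 2 and 4 and 1.31 without replicates 1, 3 and 5. For *Atp1b2* it was 0.37 (adjusted p = 0.413) and for *Atp1b3* 0.26 (adjusted p = 0.396). Both of these changed sign between the subsets of VAD WT, from 0.99 to -0.56 for *Atp1b2* and from -0.14 to 0.86 for *Atp1b3*.

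Levels of the 3 genes can be compared with each other only per length. Per kb of merged exon, the mean value in VAS WT was 4487 for *Atp1b3*, 1278 for *Atp1b2* and 879 for *Atp1b1*. In the libraries bearing the VAD Stra6-/- label it was 4159 for *Atp1b3*, 3190 for *Atp1b1* and 1607 for *Atp1b2*. The order of *Atp1b1* and *Atp1b2* was thus turned round in these libraries, which can be seen in each library of the share of the summed value per kb.

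The share of *Atp1b1* was 13.2% ± 1.21 (SD of 5 libraries) in VAS WT, 16.8% ± 0.479 (SD of 5 libraries) in VAS Stra6-/- and 35.6% ± 0.923 (SD of 5 libraries) in the libraries bearing the VAD Stra6-/- label. The rises from VAS WT to VAS Stra6-/- and from there to the libraries bearing the VAD Stra6-/- label each reached the smallest p that 5 libraries against 5 allow in a two-sided exact permutation test, 0.00794, or 0.0136 after adjustment over 12 tests. The share of *Atp1b3* fell in both comparisons by the same test, from 67.5% ± 2.01 (SD of 5 libraries) in VAS WT to 60.2% ± 0.514 (SD of 5 libraries) in VAS Stra6-/- and 46.4% ± 1.77 (SD of 5 libraries) in the libraries bearing the VAD Stra6-/- label (adjusted p = 0.0136 each, exact permutation). The shares of a library are parts of a whole. A rise in any of them forces a fall among the others, so the 12 tests are not separate evidence. The mean value of *Atp1b3* was 10719 in VAS WT and 8784 in VAS Stra6-/-, a fall as in its share. In the libraries bearing the VAD Stra6-/- label it was 9936, so the second fall was in share and not in value. *Atp1b3* held the largest share in each of the 20 libraries.

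The share of *Atp1b2* rose from 19.2% ± 1.21 (SD of 5 libraries) in VAS WT to 23.0% ± 0.919 (SD of 5 libraries) in VAS Stra6-/- and fell to 18.0% ± 1.30 (SD of 5 libraries) in the libraries bearing the VAD Stra6-/- label (adjusted p = 0.0136 each, exact permutation). That fall too was in share and not in value. The mean value of *Atp1b2* was 5735 in VAS Stra6-/- and 6564 in the libraries bearing the VAD Stra6-/- label. In VAD WT the shares were split as the values were. *Atp1b2* made up 35.3% and 35.9% in replicates 2 and 4 and 10.01% to 11.5% in replicates 1, 3 and 5. *Atp1b3* made up 44.8% and 47.5% in the former and 82.1% to 83.5% in the latter. Between VAD WT and VAS WT no share differed at the threshold over all libraries (exact permutation, adjusted p from 0.629 to 1). Without VAD WT replicates 2 and 4 all 3 did, at -6.82 percentage points for *Atp1b1*, -8.39 for *Atp1b2* and 15.2 for *Atp1b3* (adjusted p = 0.0179 each, exact permutation). Without replicates 1, 3 and 5 the differences had the opposite signs, at 5.01, 16.4 and -21.4 points (adjusted p = 0.0519 each, where 2 libraries against 5 allow an exact permutation p of 0.0476 at the least). Against VAD WT, the share in the libraries bearing the VAD Stra6-/- label was higher by 24.5 percentage points for *Atp1b1* (adjusted p = 0.0136, exact permutation), and differed by -2.81 points for *Atp1b2* (adjusted p = 0.629) and -21.7 points for *Atp1b3* (adjusted p = 0.131), the last of which was called at -27.5 points without VAD WT replicate 4 (adjusted p = 0.0238, exact permutation). Without VAD WT replicates 2 and 4 these differences were 29.2, 7.10 and -36.3 points (adjusted p = 0.0179 each, exact permutation), and without replicates 1, 3 and 5 they were 17.4 and -17.7 points (adjusted p = 0.0519 each) and 0.29 points (adjusted p = 0.905, exact permutation).

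**Figure D3:**
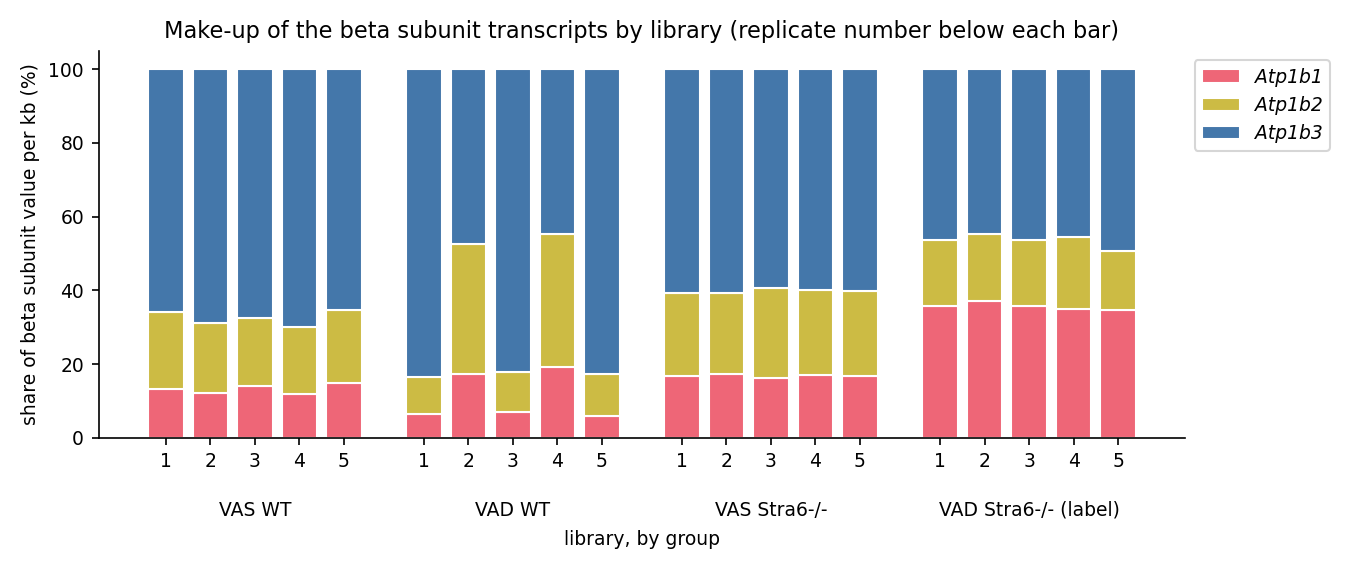
Share (%) of *Atp1b1*, *Atp1b2* and *Atp1b3* in their summed value per kb of exon, 1 bar for each of the 20 libraries. *Atp1b1* takes 34.6% to 37.0% in the libraries bearing the VAD Stra6-/- label and 5.85% to 19.3% elsewhere; VAD WT replicates 2 and 4 differ from replicates 1, 3 and 5.

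RPE transcripts as a whole differed between the groups. Of the beta genes, only *Atp1b1* was called as higher with them in the libraries bearing the VAD Stra6-/- label, in the fit over all libraries. Against VAS Stra6-/-, *Atp1b2* and *Atp1b3* differed by 0.19 and 0.18 and were not called there. Of 20 RPE markers, 19 were higher in the libraries bearing the VAD Stra6-/- label than in VAS Stra6-/-, with a median log2 fold change of 2.22, beside 24.4% of all genes higher, and 19 were higher than in VAD WT, with a median of 3.31, beside 26.2% of all genes. The latter median was 3.68 without VAD WT replicates 2 and 4 and 2.98 without replicates 1, 3 and 5. Their summed value was 650634 to 697377 in those libraries, against 162993 to 171321 in VAS Stra6-/-, 150536 to 168628 in VAS WT and 49733 to 95895 in VAD WT. All 17 markers of ocular surface epithelium were lower there than in VAS Stra6-/-, with a median of -5.03, beside 28.8% of all genes lower. In the same comparison 10 of 10 fibroblast and sclera markers (median 1.61) and 9 of 9 macrophage markers (median 1.29) were higher, and 0 of 16 rod markers were higher and 9 lower (median -0.65). The summed value of the fibroblast and sclera markers was 42590 to 43800 in VAS Stra6-/- and 209922 to 221779 in the libraries bearing the VAD Stra6-/- label. The part of these lists in the rise of *Atp1b1* was not tested.

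Set against the mean log2 value of the 20 RPE markers, *Atp1b1* was 0.15 ± 0.07 (SD of 5 libraries) in VAS WT, 0.38 ± 0.06 (SD of 5 libraries) in VAS Stra6-/- and 0.73 ± 0.33 (SD of 5 libraries) in VAD WT. In the libraries bearing the VAD Stra6-/- label it was -0.12 ± 0.05 (SD of 5 libraries), the lowest of the 4 groups. On this scale *Atp1b1* was therefore lower, not higher, in the libraries bearing the VAD Stra6-/- label, by a difference of -0.50 from VAS Stra6-/- and of -0.85 from VAD WT (adjusted p = 0.0106 each, two-sided exact permutation test, 12 tests). Its rise was smaller than that of the mean of the 20 RPE markers. Against VAD WT the difference was -0.63 without VAD WT replicates 2 and 4 (adjusted p = 0.0179) and -1.19 without replicates 1, 3 and 5 (adjusted p = 0.0519, exact permutation, as above limited by 2 libraries against 5).

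On the same scale *Atp1b2* in the libraries bearing the VAD Stra6-/- label lay -1.94 from VAS Stra6-/- and -2.69 from VAD WT, and *Atp1b3* lay -1.96 and -3.22 from them (adjusted p = 0.0106 each, exact permutation). The differences from VAD WT were -2.38 and -3.94 without its replicates 2 and 4 and -3.15 and -2.15 without replicates 1, 3 and 5. In VAD WT, relative to VAS WT, *Atp1b1* was higher on this scale by 0.59 and *Atp1b2* by 0.89 (adjusted p = 0.0106 each, exact permutation). Their own log2 differences were -0.48 and -0.18 and were not called. Of the 20 RPE markers, 16 were called as lower there, with a median of -1.02, beside 5.5% of all genes lower. Relative to the RPE markers *Atp1b3* was higher by 0.98 in the mean, but replicates 2 and 4 lay inside the VAS WT range (adjusted p = 0.127, exact permutation). Without VAD WT replicates 2 and 4 these were 0.36, 0.58 and 1.70 (adjusted p = 0.0179 each, exact permutation), and without replicates 1, 3 and 5 they were 0.93 and 1.35 (adjusted p = 0.0519 each) and -0.089 (adjusted p = 0.571, exact permutation). Between VAS Stra6-/- and VAS WT the differences were 0.23 for *Atp1b1* (adjusted p = 0.0106), 0.14 for *Atp1b2* (adjusted p = 0.0173) and -0.28 for *Atp1b3* (adjusted p = 0.0173), by exact permutation. That of *Atp1b2* was not called at 0.093 without VAS Stra6-/- replicate 3 (adjusted p = 0.0693) or at 0.11 without VAS WT replicate 5 (adjusted p = 0.0519, exact permutation). Against 6 retinoid cycle genes alone, the difference of *Atp1b1* there was 0.083 (adjusted p = 0.0667, exact permutation) and that of *Atp1b2* was -0.0073 (adjusted p = 0.992, exact permutation).

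**Figure D4:**
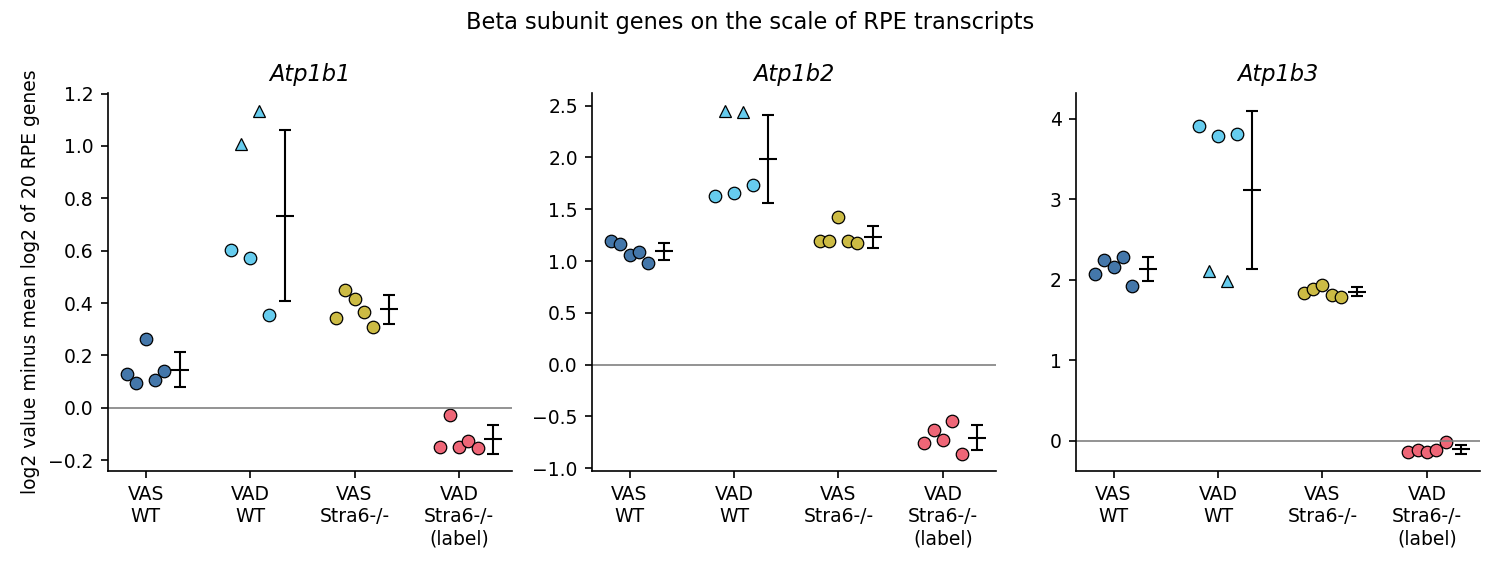
Log2 value of each gene minus the mean log2 value of 20 RPE markers, by library and group, with mean and SD; each panel has its own linear axis and triangles are VAD WT replicates 2 and 4. All 3 genes are lowest in the libraries bearing the VAD Stra6-/- label, at -0.12, -0.70 and -0.11 in the mean.

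*Atp1b4*, the beta family member that became a nuclear protein in placental mammals, was near the limit of detection. It had 2.19 to 13.2 in VAS Stra6-/- and at most 1.01 in the libraries bearing the VAD Stra6-/- label, with a log2 fold change of -2.38 (adjusted p = 0.00607), and at most 13.2 in any library.

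FXYD proteins are single-span membrane proteins that bind the alpha subunit and tune the pump. *Fxyd3*, found in several epithelia, had values of 2031 to 2289 in VAS Stra6-/- and 94.7 to 191 in the libraries bearing the VAD Stra6-/- label, a log2 fold change of -4.12 (adjusted p = 6.01e-11), and of -4.57 (adjusted p = 1.22e-11) against VAD WT, where it was -5.23 without VAD WT replicates 2 and 4 and -3.60 without replicates 1, 3 and 5. *Fxyd4* had 22.4 to 35.5 in VAS Stra6-/- and 0 in 4 of the 5 libraries bearing the VAD Stra6-/- label, with 7.17 in replicate 3, and it was lower by limma with a log2 fold change of -4.16 (adjusted p = 2.17e-06). These falls went with those of the 17 surface epithelium markers given above, whose part in them was not tested.

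*Fxyd5* and *Fxyd6* moved the other way. *Fxyd5* was higher in the libraries bearing the VAD Stra6-/- label by 0.70 against VAS Stra6-/- (adjusted p = 3.29e-06) and by 0.59 against VAD WT (adjusted p = 2.84e-05), the latter being 0.73 without VAD WT replicates 2 and 4 and 0.38 without replicates 1, 3 and 5. *Fxyd6* was higher by 0.99 (adjusted p = 0.00128) and 1.13 (adjusted p = 0.000340). Its difference from VAD WT was 1.70 without replicates 2 and 4 (adjusted p = 5.74e-12) and 0.28 without replicates 1, 3 and 5 (adjusted p = 0.0228). *Fxyd1*, or phospholemman, was lower in VAS Stra6-/- than in VAS WT, at -0.31 (adjusted p = 0.0179, and not called at -0.23 without VAS Stra6-/- replicate 3 or at -0.26 without VAS WT replicate 5), and higher in the libraries bearing the VAD Stra6-/- label than in VAS Stra6-/-, at 0.48 (adjusted p = 0.000165). *Fxyd7* was lower in the libraries bearing the VAD Stra6-/- label than in VAD WT, at -1.37 (adjusted p = 0.000534), at -1.73 without VAD WT replicates 2 and 4, and at -0.81 without VAD WT replicates 1, 3 and 5 (adjusted p = 0.0552). *Fxyd2*, the gamma subunit of kidney, was not called in any comparison and lay at 39.7 to 129. *Fxyd1*, *Fxyd3*, *Fxyd5* and *Fxyd7* are neighbours on chromosome 7 within 31032722 to 31076704.

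Over the 11 genes of the beta and FXYD families, 4 were higher (*Atp1b1*, *Fxyd1*, *Fxyd5* and *Fxyd6*) and 3 lower (*Fxyd3*, *Fxyd4* and *Atp1b4*) in the libraries bearing the VAD Stra6-/- label than in VAS Stra6-/-, a share of 63.6% beside 53.2% of all genes, of which 24.4% were higher and 28.8% lower. The median log2 fold change of the 11 genes was 0.19, against -0.07 over all genes. Against VAD WT, 3 were higher and 3 lower, or 54.5%, beside 55.9% of all genes (26.2% higher and 29.6% lower). Between VAS Stra6-/- and VAS WT, 0 were higher by limma, edgeR and DESeq2, also at an unadjusted p under 0.05 by limma, and 1, *Fxyd1*, was lower, 9.09% beside 26.6% of all genes (15.9% higher and 10.8% lower). Between VAD WT and VAS WT, 0 were called in either direction by limma, edgeR and DESeq2, beside 8.78% of all genes (3.29% higher and 5.5% lower), and at an unadjusted p under 0.05 limma had 0 higher and 1 lower, *Atp1b1*. Without VAD WT replicate 2, or without replicate 4, that 1 gene was called.

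**Figure D5:**
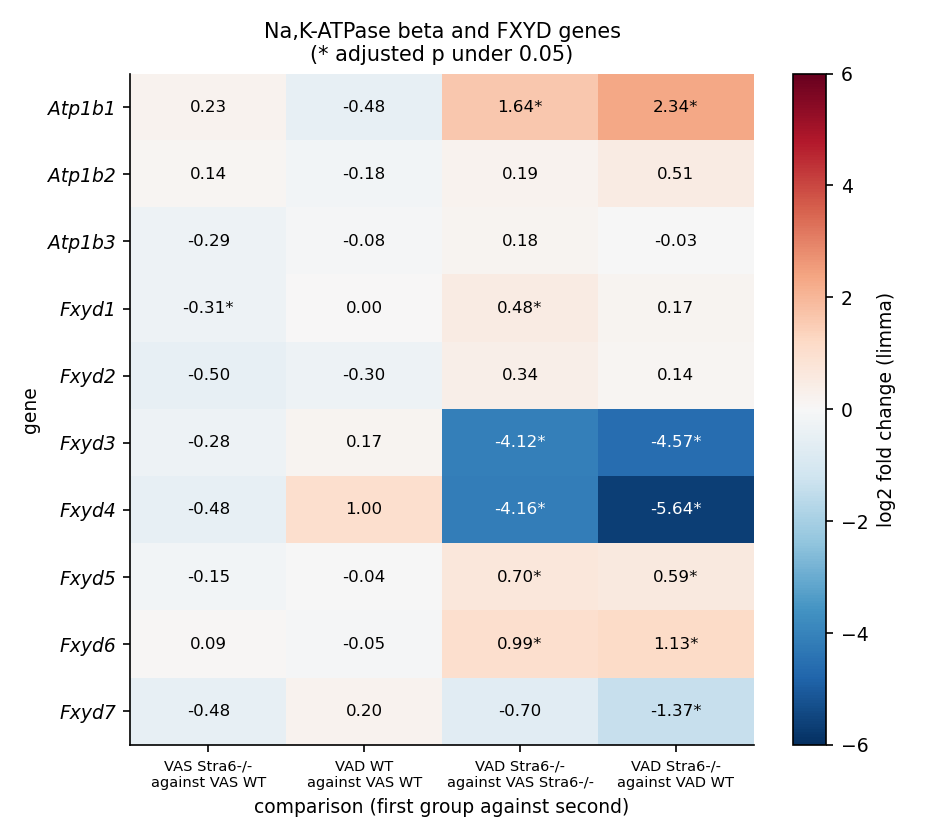
Log2 fold changes (limma; colour and printed number, asterisk for an adjusted p under 0.05) of 10 Na,K-ATPase beta and FXYD genes in 4 comparisons; *Atp1b4*, which was near 0, is left out. *Atp1b1*, *Fxyd5* and *Fxyd6* are higher and *Fxyd3* and *Fxyd4* lower in both comparisons of the libraries bearing the VAD Stra6-/- label.

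The related proton pump genes *Atp4a*, *Atp4b* and *Atp12a* were at 0 to 22.0 in all libraries. Of 14 genes that encode interactors or regulators of the pump, 6 were higher and 3 lower in the libraries bearing the VAD Stra6-/- label than in VAS Stra6-/-, or 64.3% beside the 53.2% of all genes. Of 12 transporters and channels that use or balance the gradients the pump sets up, 5 were higher and 5 lower, or 83.3%. Among these 26 genes, 6 rose and 1 fell by more than 1 on the log2 scale in that comparison, as did 8.5% and 15.4% of all genes. The largest rise was that of *Kcnj13*, the potassium channel of the apical RPE membrane, by 2.28 (adjusted p = 5.62e-12), followed by *Nkain2*, a protein that binds the beta subunit, by 2.08 (adjusted p = 0.00619). *Nkain2* had low values that overlapped, at 0 to 22.0 in VAS Stra6-/- and 14.3 to 37.9 in the libraries bearing the VAD Stra6-/- label. The fall was that of *Sik1*, a salt-inducible kinase, at -1.11 (adjusted p = 2.11e-06).

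Against VAD WT, 7 of the 26 genes rose by more than 1 and 0 fell by as much, beside 11.2% and 15.7% of all genes, led by *Kcnj13* at 3.27 (adjusted p = 2.06e-14) and *Slc4a4*, the sodium bicarbonate cotransporter, at 2.57 (adjusted p = 4.42e-11). Without VAD WT replicates 2 and 4, *Kcnj13* was at 3.58 and *Slc4a4* at 2.98. Then 11 of the 26 genes rose and 1 fell by that much, beside 2974 and 3360 of all 18807 genes. Without replicates 1, 3 and 5, *Kcnj13* and *Slc4a4* were at 2.82 and 1.96. Then 6 of the 26 genes rose and 1 fell by that much, beside 1287 and 2864 of all 18807 genes. Between VAS Stra6-/- and VAS WT only *Slc6a6*, the taurine transporter, passed that size, at 1.07 (adjusted p = 0.00404), beside 3.3% of all genes higher and 1.62% lower by as much. Between VAD WT and VAS WT, *Nkain4* fell by 1.27 (adjusted p = 0.0275) and *Kcnj13* fell by 1.07 (adjusted p = 1.79e-05), beside 0.367% of all genes higher and 1.38% lower by as much. Without VAD WT replicates 2 and 4 they stood at -1.36 and -1.37, and without replicates 1, 3 and 5 at -1.15 and -0.61. *Nkain4* had low values, at 6.50 to 44.8 in VAD WT and 44.7 to 62.4 in VAS WT.

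The genes most like each beta gene were found among 12298 genes with a mean of at least 100, by the root mean square difference of centred log2 values over the 20 libraries. For *Atp1b1* they were *Sv2b*, *Slc24a5*, *Fgl2*, *Lhfpl2* and *Slc4a4*, at differences of 0.14 to 0.16, against a median of 0.99 over all genes. For *Atp1b2* they were *Elovl4*, *Kirrel*, *Sec14l1*, *Peg13* and *Atp2b4*, at 0.12, against a median of 0.56. For *Atp1b3* they were *Rer1*, *Atp5d*, *Hn1*, *Yipf2* and *Psma7*, at 0.09 to 0.12, against a median of 0.48. *Slc24a5* encodes an ion exchanger of pigment cells, *Elovl4* a fatty acid elongase of photoreceptors, *Atp2b4* a calcium pump of the plasma membrane and *Psma7* a proteasome subunit. The 3 beta genes were unlike each other by the same measure, at 0.72 for *Atp1b1* and *Atp1b2*, 0.68 for *Atp1b2* and *Atp1b3* and 1.07 for *Atp1b1* and *Atp1b3*. These values share libraries and are a description of the patterns only.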

How the data were processed

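RNA-seq of RPE-choroid in 20 libraries was analysed, in 4 groups of 5 given by the sample labels. The paper gives each library as the eyecups of a single mouse. All SDs and tests here take the libraries as independent animals. Every library labelled VAD Stra6-/- held both *Xist* and *Ddx3y*, and whether each library is a single animal was not tested. The authors aligned reads with STAR 2.5.3a, counted genes with RSEM 1.2.30 and used DESeq2 1.32.0, as their processing notes and methods state. What the authors deposited is a signal, each sample's gene counts scaled by its own size factor, on a linear scale and not per length. In 19 libraries whole reads were recovered from the steps between values. This was not claimed for VAD Stra6-/- replicate 1, which was left out of the count tests (edgeR 4.0.16 and DESeq2 1.42.0, alternatives only) and kept in all others.

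Genes with a total of at least 5 reads were tested with limma 3.58.1 (R 4.3.3) on log2(value + 1), fitting group means, all 20 libraries sharing a spread estimate, an intensity trend and Benjamini-Hochberg adjustment over 18807 genes. The added 1 shrinks fold changes of low genes. Shares and values relative to RPE markers were compared by exact permutation over 252 splits. Genes named are the 3 members, the beta, FXYD and proton pump families, *Stra6*, *Xist* and *Ddx3y*, the 2 largest rises and falls beyond 1 (log2) in the lists of interactors and of sodium gradient users, and 5 genes of like pattern per member. *Nme7* and *Krt12* were named after their values were seen. The members and all lists were chosen with earlier results of these data known. The scripts were tested on simulated data. Positions are from GENCODE vM21 and promoters from RefSeq on GRCm38.p6. Alternatives covered the pseudocount, the filter, TMM scaling, the tool, which libraries were fitted, leaving out each library and a replicate block. Protein sequences were not used here, and values of some listed genes are not reported here.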

Additional observations from a re-analysis of the deposited data

Results flagged for a closer look

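Of 64 groups of 5 libraries checked for a library far from the other 4, 9 had one, where chance gives about 1 in 20, or 3.2. The checks are not independent, since the beta genes enter as values, relative to the RPE markers and as shares. Among normalized values, *Atp1b1* was 3305 in VAS Stra6-/- replicate 2 (others 3101 to 3139), *Atp1b2* was 6314 in VAS Stra6-/- replicate 3 (others 5523 to 5646) and *Atp1b3* was 10839 in VAD Stra6-/- replicate 5 (others 9628 to 9787). *Fxyd3* was 2289 in VAS Stra6-/- replicate 3 (others 2031 to 2067) and *Fxyd4* was 7.17 in VAD Stra6-/- replicate 3 (others 0). Relative to the RPE markers on the log2 scale, *Atp1b1* was 0.26 in VAS WT replicate 3 (others 0.09 to 0.14) and -0.025 in VAD Stra6-/- replicate 2 (others -0.15 to -0.13), *Atp1b2* was 1.42 in VAS Stra6-/- replicate 3 (others 1.17 to 1.19) and *Atp1b3* was -0.011 in VAD Stra6-/- replicate 5 (others -0.14 to -0.11). VAS Stra6-/- replicate 3 recurs 3 times in this list, with *Atp1b2* both as a value and relative to the RPE markers. VAD Stra6-/- replicate 5 recurs 2 times, both for *Atp1b3*.

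By limma's interaction term, 6 of the 11 beta and FXYD genes were called, or 54.5%, beside 44.2% of all genes. For these, the VAD minus VAS difference of the libraries labelled Stra6-/- differed from that of the libraries labelled WT. The former minus the latter was 2.12 for *Atp1b1*, 0.48 for *Fxyd1*, 0.74 for *Fxyd5*, 1.04 for *Fxyd6*, -4.29 for *Fxyd3* and -5.16 for *Fxyd4*, all on the log2 scale. The *Stra6* values of the libraries labelled VAD Stra6-/- do not by themselves show the loss that the label names, and these libraries held both *Xist* and *Ddx3y*. The interaction term of *Fxyd6* was not called without VAD WT replicates 1, 3 and 5 (0.19, adjusted p = 0.214, limma) or by edgeR (0.86, adjusted p = 0.0538).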

How the results depend on the processing

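The 2 settings that leave out part of VAD WT, along a split seen in these same libraries, changed most calls that rest on that group. The subset without replicates 1, 3 and 5, and the RPE-relative and share values without either subset, were added after the data had been seen. Replicate numbers did not pair the samples (r of deviations -0.23 to 0.14, over 0.1 for 1 pair, and in 1 case was a sample most like its own number), and the replicate block changed no call among the beta and FXYD genes, with 1446 genes called in VAD WT against VAS WT in place of 1652. Pseudocount 4, TMM scaling, a total of at least 100 reads and shares without division by length moved no summary or beta gene result past its threshold. Depth of 13331903 to 21878614 reads limits only the lowest genes. The causes of the changes below were not tested.

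Without VAD WT 2 and 4, against VAS WT, *Atp1b1* was -1.01, *Atp1b2* -0.80 and *Atp1b3* 0.32, with 3 beta and FXYD genes higher, 3 lower and 7124 of all genes called. Against VAD WT, the libraries labelled VAD Stra6-/- had *Atp1b2* at 1.13, *Atp1b3* at -0.43 and *Fxyd2* at -0.090. The interaction was 0.99 for *Atp1b2* and -0.14 for *Atp1b3*, with 4 beta and FXYD genes lower, beside 10286 of all genes called in either direction. In VAD WT against VAS WT the share difference was -6.82 points for *Atp1b1*, -8.39 for *Atp1b2* and 15.2 for *Atp1b3*, whose RPE-relative difference was 1.70. In VAD Stra6-/- against VAD WT it was 7.10 points for *Atp1b2* and -36.3 for *Atp1b3*. These share and RPE-relative differences were called.

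Without VAD WT 1, 3 and 5, against VAS WT, *Atp1b1* was 0.33, *Atp1b2* 0.75, *Atp1b3* -0.69, *Fxyd1* -0.13, *Fxyd3* -0.81, *Fxyd4* -0.18, *Fxyd5* 0.17, *Fxyd6* 0.80 and *Fxyd7* -0.36, with 3 beta and FXYD genes higher, 2 lower and 6164 of all genes called. VAD Stra6-/- against VAD WT gave *Atp1b2* -0.42 and *Atp1b3* 0.58, with 5 beta and FXYD genes higher, beside 4403 of all 18807 genes. The interaction was -0.56 for *Atp1b2* and 0.86 for *Atp1b3*. In VAD WT against VAS WT the share difference was 5.01 points for *Atp1b1* and -21.4 for *Atp1b3*, and the RPE-relative difference 0.93 for *Atp1b1*, 1.35 for *Atp1b2* and -0.089 for *Atp1b3*. In VAD Stra6-/- against VAD WT the share difference was 17.4 points for *Atp1b1* and 0.29 for *Atp1b3*, and the RPE-relative differences -1.19, -3.15 and -2.15. None of these was called by exact permutation, where 2 libraries against 5 allow p = 0.0476 at the least.

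With only the 2 groups compared, VAS Stra6-/- against VAS WT gave 0.23 for *Atp1b1*, 0.14 for *Atp1b2* and -0.29 for *Atp1b3*, now called, with 2 beta and FXYD genes higher, 3 lower and 8208 of all genes called. VAD Stra6-/- against VAS Stra6-/- gave 0.19 for *Atp1b2* and 0.18 for *Atp1b3*, now called, and VAD WT against VAS WT gave 639 genes. In VAD WT against VAS WT, *Atp1b2* was 0.030 and *Fxyd6* 0.12 by both edgeR and DESeq2. Against the 6 retinoid cycle genes, VAS Stra6-/- minus VAS WT was 0.083 for *Atp1b1* and -0.0073 for *Atp1b2*.

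Leaving out each library in turn, VAD WT against VAS WT ranged from -0.70 to -0.32 for *Atp1b1*, -0.19 to 0.077 for *Atp1b3*, 1260 to 2651 of all genes called and 0 to 1 beta and FXYD genes lower, and shares from -2.28 to 4.20 points for *Atp1b2* and -3.27 to 6.40 for *Atp1b3*. VAD Stra6-/- against VAD WT ranged from 0.33 to 0.75 for *Atp1b2* and -0.19 to 0.084 for *Atp1b3*, with shares from -5.49 to 0.98 points for *Atp1b2* and -27.5 to -17.8 for *Atp1b3*. RPE-relative differences ranged from 0.093 to 0.16 for *Atp1b2* in VAS Stra6-/- against VAS WT and from 0.78 to 1.27 for *Atp1b3* in VAD WT against VAS WT. Lower beta and FXYD genes in VAS Stra6-/- against VAS WT numbered 0 to 1. Of FXYD genes not called, VAD WT against VAS WT ranged from -0.046 to 0.056 for *Fxyd1*, -0.0085 to 0.46 for *Fxyd3*, -0.12 to 0.030 for *Fxyd5*, -0.28 to 0.16 for *Fxyd6* and -0.015 to 0.38 for *Fxyd7*, VAD Stra6-/- against VAD WT from -0.023 to 0.31 for *Fxyd2*.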
